A study of Homo sapiens with 32 samples.

Results

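The genes described here are the collagen genes, 43 of the 60107 genes counted in RNA of HEK293T cells (from human embryonic kidney) and U2OS cells (from an osteosarcoma). They are the protein-coding genes whose symbol is COL, a number, A and a number, with COL17A1 left out by the rule that defined the list. The study asked how cells respond to damage of their DNA. U2OS cells were treated for 24 h with DMSO or with camptothecin (CPT), which traps topoisomerase I on DNA, at 400 nM, and recovered for 48 h. The schedule for HEK293T cells was the same, with DMSO, 100 nM CPT or 9 µM Ku-55933, an inhibitor of the DNA damage kinase ATM. Untreated U2OS wild-type (WT) cells and U2OS cells in which ATM had been knocked out (KO) were grown for 72 h. The KO cells were clones picked after CRISPR editing, so that WT and KO cells can also differ in what sets 1 clone apart from another, and HEK293T cells carry the SV40 large T antigen. The counts came from 32 libraries in sets of 4, named here by the number in their titles.

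Collagens are the main structural proteins of the extracellular matrix. Chains wind around each other into a helix in the endoplasmic reticulum after hydroxylation of their prolines and lysines, are secreted, trimmed and then assembled. Fibrillar collagens form the banded fibrils of skin, bone, tendon and cartilage, and the fibril-associated collagens (FACITs) sit on their surface. Type IV collagen forms the sheet-like network of basement membranes, type VI forms beaded filaments around cells, type VII anchors epithelia, types VIII and X form hexagonal networks, transmembrane collagens stay in the plasma membrane, and the multiplexins XV and XVIII carry glycosaminoglycans. By this grouping the members comprised 11 fibrillar collagens, 6 of type IV, 3 short-chain network collagens, 7 of type VI and related types, 1 anchoring fibril collagen, 10 FACITs, 3 transmembrane collagens and 2 multiplexins.

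The QuantSeq method reads 1 fragment at the 3′ end of a transcript. Long transcripts therefore give no more counts than short ones, and levels of different genes are set side by side without a correction for length. Whether the 3′ ends of different genes were counted equally well was not tested, so ratios and shares between genes are those of counts. Levels are given as CPM, counts scaled to a total of 1000000 over genes in each library. Fold changes come from edgeR after TMM scaling, so that they can depart slightly from ratios of CPM. Means are given ± SD over the libraries of a set (n = 4). A member rose or fell where the absolute log2 fold change was over 1 with an adjusted p under 0.05 over all genes tested, the cutoffs of the study. Libraries held 1232674 to 6362433 counts on genes, and 3 counts, the smallest number taken as detected, stood between 0.472 and 2.43 CPM, a limit that covers counting error only. RNA came from whole cultures, so a smaller share of expressing cells and less RNA per cell cannot be told apart.

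The labels of libraries 1 to 17 go against their profiles. Across 15375 genes, 14 of the 32 libraries correlated better with the cell line that is not on their label. The correlation with the nearer line was at least 0.940 in each library and that with the farther line at most 0.788. Libraries 2, 4, 6 and 8 are labelled HEK293T CPT, libraries 3, 5 and 7 HEK293T DMSO and library 1 U2OS WT, and all 8 had the profile of U2OS. Libraries 10, 12, 14 and 16 are labelled U2OS ATM KO, libraries 11, 13 and 15 U2OS WT and library 17 HEK293T DMSO, and all 8 had the profile of HEK293T. The summed level of 7 HEK293T marker genes was 796 to 1575 CPM in the 16 libraries with a HEK293T profile and 133 to 244 CPM in the others, and that of 7 U2OS marker genes was 38.6 to 158 CPM and 952 to 1883 CPM. The column sets given for this list read libraries 1 to 8 as U2OS ATM KO (even numbers) against WT (odd numbers), and libraries 10 to 17 as HEK293T CPT (even) against DMSO (odd). Since the labels say otherwise, these sets are named by number and their values are not read as the effect of a condition. Libraries 1 and 17 have labels that differ from those of the rest of their set. Values without them are therefore given for members past the cutoffs and for the other members whose call they change. Libraries 18 to 21 are labelled HEK293T ATM KO. They are read here as the inhibitor, because the study describes RNA sequencing of HEK293T cells with the inhibitor. The study also made ATM KO clones of HEK293 cells, and whether libraries 18 to 21 hold such a clone was not tested.

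ATM transcripts do not settle these labels. They stood at 61.7, 52.9, 54.7 and 34.2 CPM in libraries 2, 4, 6 and 8 and at 57.2, 68.4, 53.4 and 63.5 CPM in libraries 1, 3, 5 and 7, a difference within the spread (log2 fold change -0.31, SE 0.17, edgeR adjusted p = 0.255). In libraries 10, 12, 14 and 16, labelled ATM KO, the level was 39.8, 39.5, 31.99 and 28.8 CPM, against 26.6, 21.2, 34.2 and 36.3 CPM in libraries 11, 13, 15 and 17 (log2 fold change 0.22, SE 0.16, edgeR adjusted p = 0.305). Libraries 18 to 21, labelled ATM KO, held 54.5, 55.7, 74.1 and 64.4 CPM, against 72.4, 81.97, 58.9 and 57.8 CPM in libraries 22 to 25 (log2 fold change -0.06, SE 0.12, edgeR adjusted p = 0.977). ATM transcripts were absent from none of these libraries, and a 3′ count does not show whether the reading frame was cut elsewhere in the gene.

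**Figure D1:**
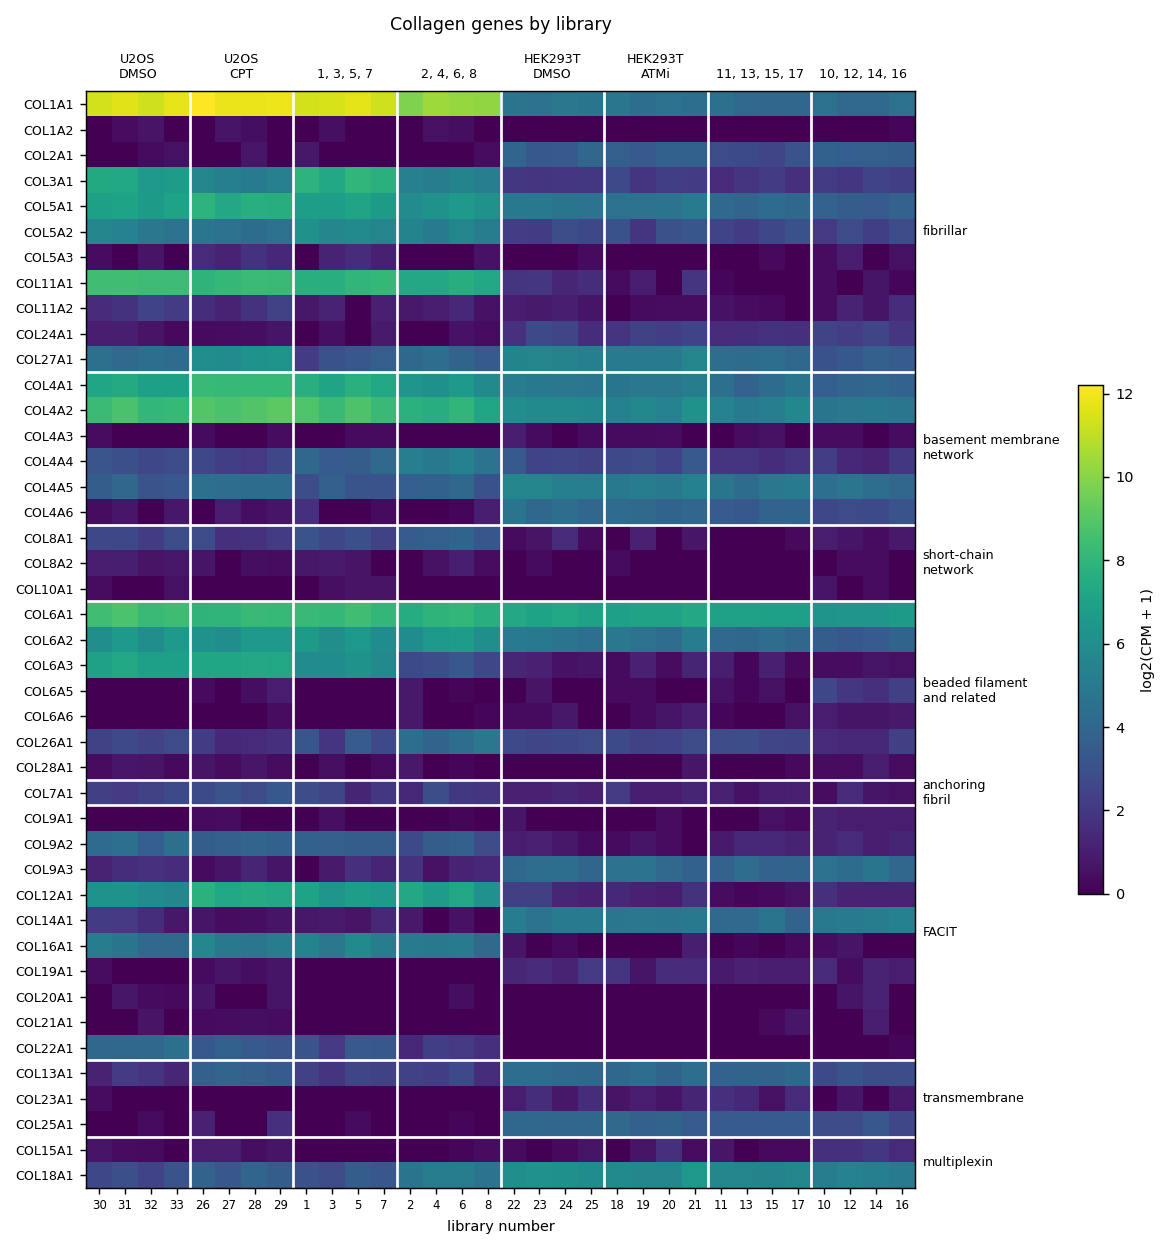
Level of the 43 collagen genes (rows, by structural class) in the 32 libraries (columns, by set), as log2(CPM + 1). COL1A1 is brightest in the 16 libraries with a U2OS profile on the left, and COL2A1, COL4A6, COL14A1 and COL25A1 stand out only in the 16 with a HEK293T profile on the right.

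In DMSO, U2OS and HEK293T cells differed in most of the collagen genes that could be tested. Higher in U2OS cells were the fibrillar genes COL1A1, COL3A1 and COL11A1, the type VI chain COL6A3 and the FACITs COL12A1, COL16A1 and COL22A1. Higher in HEK293T cells were COL2A1, COL4A6, COL14A1, COL18A1 and COL25A1. Of the 34 members tested, 19 were higher in U2OS (55.9%, against 21.8% of all 19739 genes tested) and 11 higher in HEK293T (32.4%, against 18.1%). The groups of libraries did not overlap for any of these 30 members, against 89.3% of the 7872 genes past the cutoffs. Of the 30, 8 passed the filter on low counts only through the line where they were high (COL2A1, COL8A2, COL16A1, COL19A1, COL22A1, COL23A1, COL25A1 and COL28A1) and so had to differ to be tested. The 9 members too low to test were COL1A2, COL4A3, COL5A3, COL6A5, COL6A6, COL9A1, COL10A1, COL20A1 and COL21A1. This comparison (libraries 30 to 33 against 22 to 25) shares its control libraries with the CPT and the inhibitor comparison below.

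COL1A1, which encodes the major chain of type I collagen, was at 2624, 3213, 2575 and 3477 CPM in U2OS libraries 30 to 33 and at 24.8, 23.4, 28.3 and 26.1 CPM in HEK293T libraries 22 to 25 (log2 fold change 7.08, SE 0.15, edgeR adjusted p = 2.94e-28). Type I collagen usually combines the product of COL1A1 with that of COL1A2. COL1A2 was nonetheless listed at 0 to 0.6204 CPM over the 16 libraries with a U2OS profile, at or under the floor of 3 counts in each. In U2OS DMSO, COL1A1 alone made up 61.6% of all counts on collagen genes. COL11A1, a minor fibrillar chain of cartilage that helps set fibril diameter, followed at 349, 345, 330.5 and 329 CPM against 2.69, 2.86, 1.503 and 2.07 CPM (log2 fold change 7.43, SE 0.17, edgeR adjusted p = 1.94e-27).

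COL6A3 encodes the large chain that type VI collagen needs beside those of COL6A1 and COL6A2. Its level was 124, 154, 117 and 115 CPM in U2OS and 1.496, 1.14, 0.501 and 0.592 CPM in HEK293T (log2 fold change 7.29, SE 0.22, edgeR adjusted p = 1.46e-24). The other chains of type VI differed far less between the lines, with COL6A1 at 354 ± 58.6 CPM in U2OS and 146 ± 17.7 CPM in HEK293T and COL6A2 at 78.5 ± 18.3 CPM and 27.2 ± 5.38 CPM. COL6A1 was the most abundant member in HEK293T DMSO, with 23.7% of the counts on collagen genes. The FACIT COL22A1, known from tissue junctions such as that of muscle and tendon, had 0 counts in the 4 HEK293T DMSO libraries and 15.1, 15.8, 15.8 and 21.6 CPM in U2OS, at least 81.0-fold higher when set against a floor of 3 counts over the HEK293T set.

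In the other direction, COL25A1, a neuronal transmembrane collagen, was at 16.5, 16.6, 15.03 and 15.997 CPM in HEK293T and at 0, 0, 0.293 and 0 CPM in U2OS (log2 fold change -7.01, SE 0.47, edgeR adjusted p = 4.50e-15). COL2A1, the main collagen of cartilage, was at 14.7, 9.42, 9.52 and 15.4 CPM against 0, 0, 0.293 and 0.481 CPM (log2 fold change -5.37, SE 0.47, edgeR adjusted p = 4.05e-12). The pattern was the same for the FACIT COL14A1, with 34.7, 24.3, 31.8 and 32.9 CPM in HEK293T and 3.396, 3.097, 2.05 and 0.721 CPM in U2OS (log2 fold change -3.57, SE 0.25, edgeR adjusted p = 1.62e-14), and for COL18A1, the basement membrane multiplexin from which endostatin is cut, with 66.7, 71.7, 67.9 and 60.7 CPM and 5.25, 6.88, 4.39 and 7.93 CPM (log2 fold change -3.20, SE 0.17, edgeR adjusted p = 1.01e-17). Reads on COL18A1 and COL9A3 are uncertain, since the last 1000 bases of each overlap a gene on the opposite strand (SLC19A1 and TCFL5) and whether the counting used the strand is not given in the sources used here.

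All counts on collagen genes together made up 0.416 to 0.537% of the counts on genes in U2OS DMSO and 0.0553 to 0.0672% in HEK293T DMSO. CPT libraries of U2OS lay above both, at 0.569 to 0.693%. Libraries 2, 4, 6 and 8 (labelled HEK293T CPT) lay lower, at 0.211 to 0.271%, against 0.420 to 0.547% in libraries 1, 3, 5 and 7. Without COL1A1 the shares were 0.199 to 0.232% in U2OS CPT and 0.159 to 0.216% in U2OS DMSO, which overlap, and 0.0977 to 0.148% and 0.153 to 0.213% in the even and odd libraries of 1 to 8, which do not.

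CPT in U2OS cells moved collagen genes of several classes. COL13A1, COL27A1, COL12A1, COL4A1, COL18A1, COL4A5, COL5A3 and COL25A1 rose, and COL3A1, COL14A1 and COL26A1 fell. Of 36 members tested, 8 rose (22.2%, against 7.97% of all 19080 genes tested) and 3 fell (8.33%, against 5.5%). By adjusted p alone, without the cutoff on fold change, 14 rose (38.9%, against 16.6%) and 4 fell (11.1%, against 15.3%). The median log2 fold change was 0.25 over the members tested and 0.0079 over all genes tested. The groups of libraries did not overlap for 10 of the 11 members that rose or fell, against 88.7% of the 2569 genes that did, the exception being COL25A1. COL5A3 and COL25A1 passed the filter on low counts only through the CPT libraries. The 7 members too low to test were COL4A3, COL6A5, COL6A6, COL9A1, COL10A1, COL21A1 and COL23A1.

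**Figure D2:**
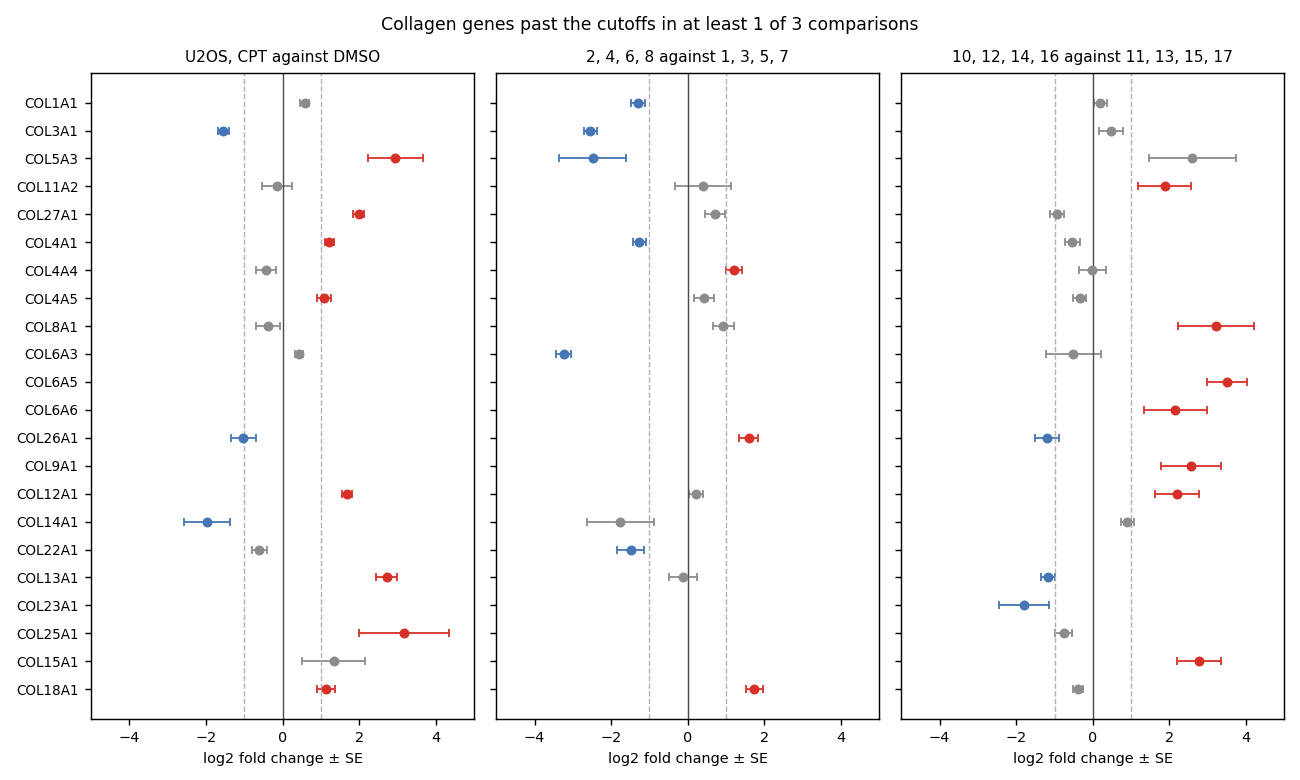
Log2 fold change (x axis, point) with its standard error (bar) for the 22 collagen genes that rose or fell in at least 1 of 3 comparisons, from edgeR. Red points rose, blue points fell, grey points did not pass the cutoffs (dashed lines mark a log2 fold change of 1 in either direction), and no point means that the gene was too low to test. COL4A1 stands at 1.21 on the left and -1.26 in the middle, and COL3A1 at -1.55 and -2.54.

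Among the fibrillar collagens, COL27A1 and COL3A1 went in opposite directions. COL27A1, a cartilage and developmental fibrillar collagen, was at 62.97, 58.004, 72.7 and 77.98 CPM in CPT libraries 26 to 29 and 21.6, 16.9, 20.2 and 18.5 CPM in DMSO libraries 30 to 33 (log2 fold change 1.98, SE 0.14, edgeR adjusted p = 5.45e-13), so that the lowest CPT library lay far above the highest DMSO library. COL3A1, the collagen of extensible tissues such as skin and vessels, was at 47.4, 36.9, 32.9 and 38.4 CPM against 171, 153, 90.2 and 106 CPM (log2 fold change -1.55, SE 0.15, edgeR adjusted p = 9.15e-10). For COL3A1 every CPT library lay under every DMSO library. COL5A3 rose from 0.309, 0, 0.586 and 0 CPM to 1.77, 1.24, 2.42 and 1.56 CPM (log2 fold change 2.94, SE 0.72, edgeR adjusted p = 0.00185), levels near the floor. COL5A1, whose product nucleates fibrils of type I collagen, was at 199 ± 31.6 CPM against 123 ± 15.9 CPM and passed by adjusted p alone (log2 fold change 0.87, SE 0.12, edgeR adjusted p = 1.60e-06). Its partner COL5A2 did not (log2 fold change -0.39, SE 0.17, edgeR adjusted p = 0.0725), and the ratio of COL5A1 to COL5A2 counts was 8.85 ± 1.47 with CPT and 3.84 ± 1.31 with DMSO.

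COL1A1 itself stood at 4697, 3695, 3638 and 3731 CPM with CPT against 2624, 3213, 2575 and 3477 CPM with DMSO. Library 26 was the highest of the CPT libraries, and the change fell short of the cutoff on fold (log2 fold change 0.57, SE 0.13, edgeR adjusted p = 5.90e-04). COL11A1 showed no such rise, with 239.8, 281, 312 and 312 CPM against 349, 345, 330.5 and 329 CPM (log2 fold change -0.07, SE 0.11, edgeR adjusted p = 0.675). The remaining fibrillar members, COL1A2, COL2A1, COL11A2 and COL24A1, lay at 0 to 0.6204 CPM, 0 to 0.693 CPM, 1.24 to 4.39 CPM and 0.2403 to 1.03 CPM and passed no cutoff.

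The type IV genes lie in head-to-head pairs that share an intergenic region, COL4A1 with COL4A2 on chromosome 13, COL4A4 with COL4A3 on chromosome 2 and COL4A6 with COL4A5 on chromosome X. The products of COL4A1 and COL4A2 form the heterotrimer found in all basement membranes, and the other chains form heterotrimers of kidney, lung, eye and smooth muscle. The start sites of the pairs are 126, 418 and 379 bases apart in the RefSeq annotation of GRCh38.p14. Because the data bear on whether the genes on either side of these regions were at like levels, the region between COL4A1 and COL4A2 (chr13:110307158-110307283, plus strand, 80.2% G and C) is printed whole, with the 250 bases before the start of COL4A4 (chr2:227164206-227164455, minus strand, 72.8%) and before that of COL4A5 (chrX:108439588-108439837, plus strand, 51.2%). Capitals mark CCAAT and GGGCGG, searched on both strands, so that ATTGG and CCGCCC are marked too.
COL4A1-COL4A2: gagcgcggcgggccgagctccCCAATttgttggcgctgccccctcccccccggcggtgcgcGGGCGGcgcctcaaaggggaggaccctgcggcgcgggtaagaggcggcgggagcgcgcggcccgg
COL4A4: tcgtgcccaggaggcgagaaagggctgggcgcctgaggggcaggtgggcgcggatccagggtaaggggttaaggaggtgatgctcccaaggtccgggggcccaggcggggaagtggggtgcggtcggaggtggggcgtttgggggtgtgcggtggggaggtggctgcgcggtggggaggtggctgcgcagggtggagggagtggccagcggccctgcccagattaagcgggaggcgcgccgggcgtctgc
COL4A5: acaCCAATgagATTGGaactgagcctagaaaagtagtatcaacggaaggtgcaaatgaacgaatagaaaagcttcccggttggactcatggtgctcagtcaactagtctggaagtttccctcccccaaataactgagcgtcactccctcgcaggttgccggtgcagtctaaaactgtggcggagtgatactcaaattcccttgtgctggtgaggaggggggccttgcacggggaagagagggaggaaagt

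The region between COL4A1 and COL4A2 held 1 CCAAT and 1 GGGCGG, that before COL4A5 held 2 CCAAT, and that before COL4A4 held neither. CCAAT was found in 34.6% and GGGCGG in 44.9% of all 34943 promoters of the table, taken as 250 bases before to 50 after the start. Of the 31 collagen genes with a promoter in it, 9 held CCAAT, 18 GGGCGG and 4 TATAAA (11.6% of all promoters). These are matches of letters, not sites shown to bind a factor.

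COL4A1 rose with CPT and its neighbour COL4A2 passed by adjusted p alone. COL4A1 was at 294, 283, 284 and 284 CPM in the CPT libraries of U2OS and 142, 177, 122 and 118 CPM in DMSO (log2 fold change 1.21, SE 0.12, edgeR adjusted p = 6.63e-10). COL4A2 was at 490.5, 408, 476 and 552 CPM and 322, 408, 273 and 284 CPM (log2 fold change 0.76, SE 0.12, edgeR adjusted p = 7.16e-06), with library 27 at the level of the highest DMSO library. The ratio of COL4A2 to COL4A1 counts stayed between 1.44 and 2.81 over all 32 libraries, while COL4A1 itself ran from 11.6 to 294 CPM. Within that range the ratio was 1.68 ± 0.206 with CPT and 2.3003 ± 0.0735 with DMSO in U2OS.

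The other pairs were uneven. COL4A5 rose from 11.1, 15.1, 7.62 and 8.89 CPM in U2OS DMSO to 21.5, 19.5, 19.04 and 19.03 CPM with CPT (log2 fold change 1.08, SE 0.19, edgeR adjusted p = 2.61e-05), and without library 32 its log2 fold change was 0.96, under the cutoff. COL4A6, on the other side of the same region, stayed at 0 to 0.931 CPM in these 8 libraries, at or near the floor. In HEK293T DMSO both were present, COL4A5 at 46.1, 49.1, 37.3 and 36.7 CPM and COL4A6 at 25.4, 15.99, 20.04 and 15.1 CPM. COL4A4 was at 8.34, 6.88, 5.27 and 6.01 CPM in U2OS DMSO and 5.296, 3.72, 3.12 and 4.99 CPM with CPT (log2 fold change -0.43, SE 0.26, edgeR adjusted p = 0.222), whereas its neighbour COL4A3 was under 1 CPM in all 32 libraries.

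**Figure D3:**
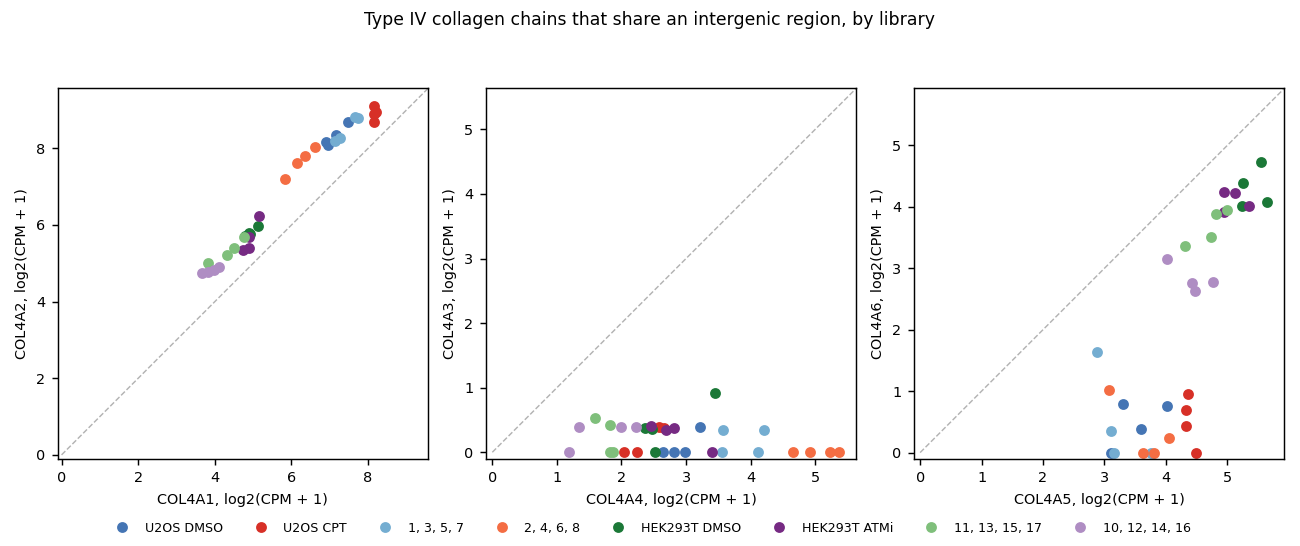
Each point is 1 of 32 libraries, coloured by set, with the level of 1 type IV collagen gene on the x axis and that of its head-to-head neighbour on the y axis, both as log2(CPM + 1) (the dashed line marks equal levels). COL4A1 and COL4A2 lie along a line parallel to equality, COL4A3 stays near 0 at every level of COL4A4, and COL4A6 is above 2 on this scale only in the 16 libraries with a HEK293T profile.

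Among the fibril-associated collagens, COL12A1, which bridges fibrils in tendon and other loaded tissues, was at 220.1, 158, 180.1 and 166 CPM with CPT and 75.9, 75.4, 58.3 and 48.3 CPM with DMSO (log2 fold change 1.67, SE 0.13, edgeR adjusted p = 7.60e-12). All 4 CPT libraries lay above the DMSO libraries. COL14A1, a FACIT of dense connective tissue, fell from 3.396, 3.097, 2.05 and 0.721 CPM to 0.588, 0.3102, 0.346 and 0.624 CPM (log2 fold change -1.98, SE 0.60, edgeR adjusted p = 0.01101), at levels near the floor. COL16A1 was at 48.8, 29.5, 26.7 and 34.6 CPM against 35.2, 26.2, 17.3 and 17.8 CPM, groups that overlap, and passed by adjusted p alone (log2 fold change 0.74, SE 0.18, edgeR adjusted p = 0.00205). COL22A1 was at 9.12, 12.7, 10.04 and 8.42 CPM against 15.1, 15.8, 15.8 and 21.6 CPM and was lower by adjusted p alone (log2 fold change -0.61, SE 0.20, edgeR adjusted p = 0.0179), which did not hold without library 26, 29 or 33 (edgeR adjusted p = 0.052, 0.0673 and 0.101). COL9A2, a chain of the cartilage FACIT type IX, was at 12.7 ± 1.39 CPM against 18.05 ± 4.73 CPM and passed no cutoff (log2 fold change -0.34, SE 0.19, edgeR adjusted p = 0.187).

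COL13A1, a transmembrane collagen of cell adhesions and the neuromuscular junction, showed the largest log2 fold change among members with a mean above 10 CPM in either U2OS set. It stood at 12.4, 14.9, 12.5 and 10.6 CPM with CPT against 1.23, 3.44, 2.64 and 1.44 CPM with DMSO (log2 fold change 2.71, SE 0.28, edgeR adjusted p = 3.29e-09), with every CPT library above the highest DMSO library. COL25A1, also a transmembrane collagen, passed the cutoffs (log2 fold change 3.16, SE 1.18, edgeR adjusted p = 0.0388), but its CPT libraries stood at 1.18, 0, 0 and 2.18 CPM and its DMSO libraries at 0, 0, 0.293 and 0 CPM, so the change rests on libraries 26 and 29. COL18A1 rose from 5.25, 6.88, 4.39 and 7.93 CPM to 13.8, 8.995, 14.9 and 10.9 CPM (log2 fold change 1.14, SE 0.23, edgeR adjusted p = 2.54e-04), and the sets did not overlap. COL15A1, the other multiplexin, was under 1 CPM in all 8 libraries.

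Type VI genes did not reach the cutoff on fold with CPT in U2OS. COL6A1 was at 274 ± 31.98 CPM against 354 ± 58.6 CPM (log2 fold change -0.20, SE 0.12, edgeR adjusted p = 0.208). COL6A2 was at 81.8 ± 15.01 CPM against 78.5 ± 18.3 CPM (log2 fold change 0.22, SE 0.15, edgeR adjusted p = 0.281). COL6A3 was at 152 ± 7.08 CPM against 128 ± 17.9 CPM, which passed by adjusted p alone (log2 fold change 0.43, SE 0.11, edgeR adjusted p = 0.00366). COL26A1, grouped with them here, fell from 4.32, 5.51, 4.69 and 6.25 CPM to 3.53, 1.55, 1.73 and 2.18 CPM (log2 fold change -1.02, SE 0.33, edgeR adjusted p = 0.0166), and its call was lost without library 27, 28, 29 or 33, with log2 fold changes between -0.87 and -0.997. COL7A1, the anchoring fibril collagen, was at 5.59, 7.75, 6.23 and 9.36 CPM against 4.01, 3.097, 4.102 and 5.77 CPM and passed by adjusted p alone (log2 fold change 0.90, SE 0.27, edgeR adjusted p = 0.0103). Without library 29 it did not (edgeR adjusted p = 0.0531), and without library 26 or 33 it passed both cutoffs. The network collagen COL8A1 was at 5.88, 2.17, 2.42 and 3.43 CPM against 5.25, 5.16, 3.52 and 6.49 CPM (log2 fold change -0.38, SE 0.32, edgeR adjusted p = 0.404).

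**Figure D4:**
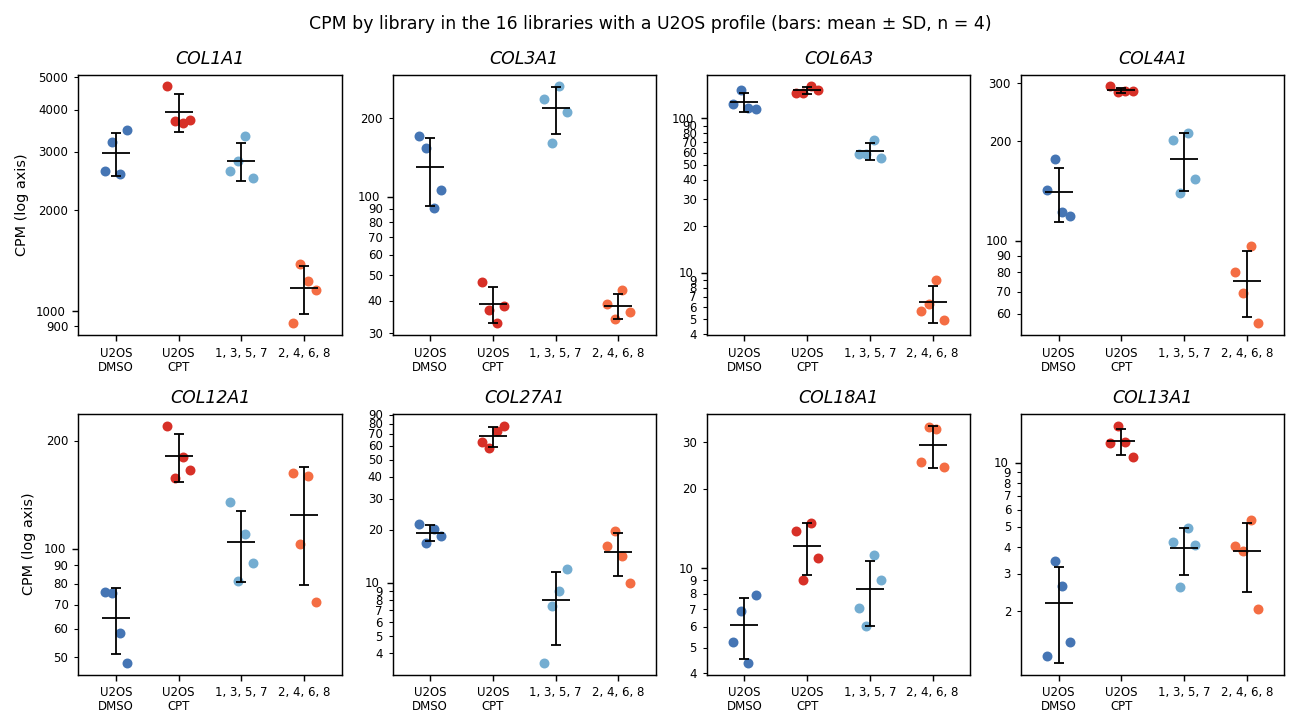
CPM on a log axis of 8 collagen genes in the 16 libraries with a U2OS profile, with a point for each library and bars for the mean ± SD (n = 4). COL3A1 is low both with CPT (38.9 CPM) and in libraries 2, 4, 6 and 8 (38.3 CPM), whereas COL4A1 is high with CPT (286 CPM) and low in libraries 2, 4, 6 and 8 (75.5 CPM).

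Between the even and the odd libraries of 1 to 8, all with a U2OS profile, 6 collagen genes fell and 3 rose. COL6A3, COL3A1, COL1A1, COL4A1, COL22A1 and COL5A3 were lower in libraries 2, 4, 6 and 8, and COL18A1, COL26A1 and COL4A4 were higher. Of the 30 members tested, 20% fell (against 2.44% of all 18591 genes tested) and 10% rose (against 2.8%). By adjusted p alone, 11 fell (36.7%, against 6.56%) and 4 rose (13.3%, against 6.43%). The median log2 fold change was -0.28 over the members tested and 0.040 over all genes tested. The sets did not overlap for 7 of the 9 members past the cutoffs, against 80.6% of the 974 genes past them. When the libraries were grouped strictly by their labels, which sets libraries of both profiles against each other, no member passed.

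Of the members that fell, COL6A3 had the largest fold change. It was at 5.68, 6.26, 9.03 and 4.98 CPM in libraries 2, 4, 6 and 8 and at 58.6, 59.3, 72.8 and 55.6 CPM in libraries 1, 3, 5 and 7 (log2 fold change -3.24, SE 0.21, edgeR adjusted p = 1.26e-18, a 9.46-fold lower level), and the log2 fold change was -3.24 without library 1. The even libraries all lay far below the odd ones. Its partners COL6A1 and COL6A2 passed no cutoff, with COL6A1 at 187, 241, 271 and 199.9 CPM against 292, 277, 345 and 268 CPM (log2 fold change -0.42, SE 0.15, edgeR adjusted p = 0.0602) and COL6A2 at 60.8, 88.5, 107 and 65.8 CPM against 98.1, 63.2, 90.6 and 59.2 CPM (log2 fold change 0.05, SE 0.18, edgeR adjusted p = 0.908). Without library 4, 6 or 7, COL6A1 was lower by adjusted p alone. The ratio of COL6A1 to COL6A3 counts was therefore 35.4 ± 4.72 in the even libraries, 4.81 ± 0.134 in the odd ones and 2.77 ± 0.194 in U2OS DMSO. COL26A1 was higher in the even libraries, at 20.3, 13.95, 19.96 and 27.7 CPM against 8.47, 2.596, 10.4 and 5.45 CPM (log2 fold change 1.59, SE 0.25, edgeR adjusted p = 4.15e-06, and 1.67 without library 1).

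Of the fibrillar collagens, COL3A1 was at 38.9, 34.2, 43.9 and 36.3 CPM in libraries 2, 4, 6 and 8 and 237, 161, 264 and 210.2 CPM in libraries 1, 3, 5 and 7 (log2 fold change -2.54, SE 0.17, edgeR adjusted p = 5.44e-18). COL1A1 was at 919, 1382, 1229.5 and 1155 CPM against 2625, 2801, 3335 and 2508 CPM (log2 fold change -1.29, SE 0.18, edgeR adjusted p = 1.34e-07). For neither gene did the sets overlap, and without library 1 the log2 fold changes were -2.47 for COL3A1 and -1.30 for COL1A1. COL5A1 (log2 fold change -0.61, SE 0.16, edgeR adjusted p = 0.00434), COL5A2 (log2 fold change -0.55, SE 0.18, edgeR adjusted p = 0.0276) and COL11A1 (log2 fold change -0.49, SE 0.15, edgeR adjusted p = 0.0187) were lower by adjusted p alone, COL5A2 not without library 1 (log2 fold change -0.38, edgeR adjusted p = 0.198), 4 or 8 and COL11A1 not without library 5. COL3A1 and COL5A2 lie tail to tail on chromosome 2, 19149 bases apart in GENCODE 29, and their levels moved by different amounts. COL5A3 passed at the edge of the threshold (log2 fold change -2.48, SE 0.88, edgeR adjusted p = 0.04996), with 0.516 CPM or less in the even libraries and up to 1.92 CPM in the odd ones. It passed the filter on low counts only through the odd libraries, and its call was lost without library 2, 3, 4, 5, 6 or 7, though not without library 1 (log2 fold change -2.70, edgeR adjusted p = 0.0395).

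The type IV pairs again differed. COL4A1 was at 80.3, 69.3, 96.5 and 56.03 CPM against 202, 139, 212 and 153 CPM (log2 fold change -1.26, SE 0.17, edgeR adjusted p = 9.72e-08, and -1.16 without library 1), and COL4A2 at 221, 195, 259 and 145 CPM against 451, 293, 442 and 308 CPM, lower by adjusted p alone (log2 fold change -0.90, SE 0.17, edgeR adjusted p = 1.07e-04). Without library 3, 6 or 7, COL4A2 passed both cutoffs. COL4A4 was higher, at 36.5, 29.4, 40.3 and 24.2 CPM against 16.2, 10.8, 10.95 and 17.4 CPM (log2 fold change 1.21, SE 0.21, edgeR adjusted p = 1.40e-05, and 1.30 without library 1). Over these 8 libraries its head-to-head neighbour COL4A3 stood at 0 to 0.274 CPM, so that the pair did not move together at detectable levels. COL4A5 passed no cutoff (log2 fold change 0.42, SE 0.26, edgeR adjusted p = 0.333), and COL4A6 stayed at 0 to 2.12 CPM.

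COL18A1 was higher in the even libraries, at 25.1, 34.2, 33.7 and 24.2 CPM against 7.06, 6.06, 11.2 and 8.998 CPM (log2 fold change 1.74, SE 0.22, edgeR adjusted p = 1.52e-08, and 1.71 without library 1). COL8A1 was at 10.5, 12.03, 14.2 and 8.59 CPM against 7.76, 5.19, 6.84 and 4.36 CPM and passed by adjusted p alone (log2 fold change 0.93, SE 0.27, edgeR adjusted p = 0.0146). Without library 1 it passed both cutoffs (log2 fold change 1.04, edgeR adjusted p = 0.0154), as it did without library 5 or 8, and without library 6 or 7 it passed neither. Among the FACITs, COL22A1 was at 1.62, 3.85, 3.12 and 2.23 CPM against 7.76, 3.03, 9.58 and 9.27 CPM (log2 fold change -1.49, SE 0.34, edgeR adjusted p = 0.00142, and -1.46 without library 1), where library 3 lay within the even libraries. COL12A1 did not differ beyond the spread (log2 fold change 0.21, SE 0.19, edgeR adjusted p = 0.531), with 162, 103, 159.5 and 71.1 CPM and 135, 81.3, 110.0 and 91.6 CPM. COL16A1 was lower by adjusted p alone (log2 fold change -0.63, SE 0.20, edgeR adjusted p = 0.0248), which did not hold without library 1 (log2 fold change -0.57, edgeR adjusted p = 0.1001), 5 or 8. Neither COL13A1 (log2 fold change -0.12, SE 0.37, edgeR adjusted p = 0.895) nor COL27A1 (log2 fold change 0.71, SE 0.26, edgeR adjusted p = 0.0559) passed. COL27A1 was higher by adjusted p alone with edgeR's likelihood ratio test (adjusted p = 0.0427) and without library 7 or 8. Library 1 and library 2 were the shallowest of the series, and the share of counts outside genes was 23.8 to 36.8% in the even and 23.9 to 34.2% in the odd libraries.

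The CPT comparison of U2OS and that of libraries 1 to 8 share no library, so their difference was tested as an interaction in edgeR. It passed the cutoffs for 13 of 37 members, 10 with a more positive fold change under CPT (27.03%, against 5.58% of all 20539 genes tested) and 3 in which it was more negative (8.11%, against 5.19%). COL5A3, among the 10, was near the floor throughout and was lost with filterByExpr. COL6A3 differed most clearly (difference 3.66, SE 0.24, edgeR adjusted p = 5.86e-20), followed by COL4A1 (difference 2.47, SE 0.22, edgeR adjusted p = 3.39e-14), which rose in the first comparison and fell in the second. COL26A1 fell in the first and rose in the second (difference -2.61, SE 0.43, edgeR adjusted p = 4.34e-06). COL3A1 fell in both comparisons, and their difference fell short of the cutoff on fold (difference 0.99, SE 0.23, edgeR adjusted p = 8.54e-04). COL18A1 rose in both, and its difference did not pass (difference -0.60, SE 0.33, edgeR adjusted p = 0.227).

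Between the even and odd libraries of 10 to 17, which had a HEK293T profile, 7 collagen genes rose and 3 fell. COL6A5, COL8A1, COL15A1, COL9A1, COL12A1, COL6A6 and COL11A2 rose, all under 6 CPM in each of these 8 libraries, and COL23A1, COL26A1 and COL13A1 fell. Of the 37 members tested, 18.9% rose (against 9.52% of all 19464 genes tested) and 8.11% fell (against 4.45%). Of the 7 that rose, COL6A6, COL8A1, COL9A1 and COL15A1 passed the filter on low counts only through the even libraries and so had to rise to be tested, and with the filterByExpr filter of edgeR only 3 members passed, COL6A5, COL13A1 and COL26A1. By adjusted p alone, 10 rose (27.03%, against 17.6%) and 12 fell (32.4%, against 17.3%). The median log2 fold change was -5.9e-04 over the members tested and 0.041 over all genes tested. The sets did not overlap for 8 of the 10 members past the cutoffs, against 81.2% of the 2718 genes past them, the exceptions being COL11A2 and COL23A1. The share of counts outside genes was 17.02 to 19.8% in the even and 10.9 to 12.4% in the odd libraries, and the summed level of the 7 U2OS markers was 122 to 158 CPM against 38.6 to 47.4 CPM, while that of the 7 HEK293T markers was 1063 to 1377 and 1203 to 1575 CPM. The part of these differences in the fold changes of the members was not tested.

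COL6A5 and COL6A6 lie in tandem on chromosome 3 and encode chains thought to stand in for that of COL6A3. COL6A5 was at 5.21, 2.78, 2.24 and 3.93 CPM in libraries 10, 12, 14 and 16 and at 0.505, 0.169, 0.444 and 0 CPM in libraries 11, 13, 15 and 17 (log2 fold change 3.50, SE 0.52, edgeR adjusted p = 1.65e-05, and 3.16 without library 17). COL6A6 was at 0.919, 0.617, 0.6397 and 0.786 CPM against 0.168, 0, 0 and 0.443 CPM (log2 fold change 2.15, SE 0.82, edgeR adjusted p = 0.0454, and 3.10 without library 17). Both were near the floor even where they were highest. COL15A1 was at 2.14, 2.16, 2.88 and 1.73 CPM against 0.674, 0, 0.222 and 0.222 CPM (log2 fold change 2.77, SE 0.58, edgeR adjusted p = 6.75e-04, and 2.68 without library 17). COL12A1 stood at 2.14, 1.23, 1.28 and 1.26 CPM against 0.337, 0.169, 0.222 and 0.443 CPM (log2 fold change 2.20, SE 0.58, edgeR adjusted p = 0.00484, and 2.40 without library 17).

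COL8A1 was listed at 0.919, 0.617, 0.3199 and 0.786 CPM and 0, 0, 0 and 0.222 CPM (log2 fold change 3.22, SE 0.98, edgeR adjusted p = 0.0137), COL9A1 at 1.22, 0.926, 0.9596 and 0.943 CPM and 0, 0, 0.444 and 0.222 CPM (log2 fold change 2.56, SE 0.78, edgeR adjusted p = 0.0133). Without library 17 their log2 fold changes were 4.70 and 2.74. COL11A2 passed at the edge (log2 fold change 1.88, SE 0.69, edgeR adjusted p = 0.0383), as did COL23A1 (log2 fold change -1.79, SE 0.65, edgeR adjusted p = 0.0351). Neither passed without library 17 (1.54 and -1.74).

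Of the 12 members tested at a mean of 10 CPM or more over libraries 10 to 17, 0 rose and 1, COL13A1, fell, and by adjusted p alone 1 was higher and 8 were lower. Over all genes tested, at any level, 17.6% were higher and 17.3% lower by adjusted p alone. The share among all genes at 10 CPM or more was not counted, so these 12 members have no matched background. COL13A1 was at 5.51, 7.72, 6.08 and 6.29 CPM in the even libraries of 10 to 17 and 13.1, 13.7, 13.8 and 16.2 CPM in the odd ones (log2 fold change -1.17, SE 0.19, edgeR adjusted p = 5.66e-05, and -1.12 without library 17). COL26A1, a scarcer member, was at 1.84, 1.54, 1.599 and 3.93 CPM against 6.06, 6.43, 4.89 and 4.65 CPM (log2 fold change -1.19, SE 0.31, edgeR adjusted p = 0.004197, and -1.28 without library 17). By adjusted p alone, COL27A1 (log2 fold change -0.93, SE 0.18, edgeR adjusted p = 3.60e-04), COL4A6 (log2 fold change -0.92, SE 0.21, edgeR adjusted p = 0.00173), COL25A1 (log2 fold change -0.76, SE 0.21, edgeR adjusted p = 0.00781), COL4A2 (log2 fold change -0.57, SE 0.15, edgeR adjusted p = 0.00426), COL4A1 (log2 fold change -0.53, SE 0.19, edgeR adjusted p = 0.03202) and COL6A1 (log2 fold change -0.51, SE 0.11, edgeR adjusted p = 0.00128) were lower, as were COL6A2, COL5A1 and COL18A1. Without library 17, COL4A1 did not pass (log2 fold change -0.40, edgeR adjusted p = 0.121). COL5A1, COL6A2 and COL18A1 each failed without at least 1 other library, while COL27A1 without library 14 and COL4A6 without library 13 or 16 passed both cutoffs. COL2A1 was at 12.9, 11.4, 11.8 and 11.002 CPM against 5.89, 5.75, 4.89 and 7.76 CPM and COL14A1 at 30.01, 30.9, 34.2 and 40.6 CPM against 17.2, 16.8, 24.7 and 13.7 CPM, sets that did not overlap for either gene. Both were higher by adjusted p alone, COL2A1 with a log2 value of 0.93 (edgeR adjusted p = 0.00113) and COL14A1 with 0.90 (edgeR adjusted p = 2.57e-04). COL2A1 passed both cutoffs without library 17 (log2 fold change 1.04, edgeR adjusted p = 7.63e-04), and COL14A1 did so without library 15. Without library 17, COL28A1 passed as well (log2 fold change 4.09, edgeR adjusted p = 0.0343), while COL24A1, higher by adjusted p alone, did not (log2 fold change 0.83, edgeR adjusted p = 0.0618).

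In the even libraries of 10 to 17, COL13A1 fell and COL27A1, COL4A1 and COL18A1 were lower by adjusted p alone, in contrast to their rise with CPT in U2OS. By DESeq2, COL4A1 and COL18A1 did not pass there (DESeq2 adjusted p = 0.0804 and 0.051). COL25A1, near the floor in U2OS, was lower by adjusted p alone as well. Other members moved alike, as COL12A1 rose in both comparisons, at 2.14 CPM or less in libraries 10 to 17, and COL26A1 fell in both. COL5A3 passed no cutoff in libraries 10 to 17. COL4A5 also rose with CPT but passed no cutoff in libraries 10 to 17. It was at 20.8 ± 4.49 CPM in the even and 25.7 ± 4.98 CPM in the odd libraries, and the sets overlapped. The interaction of the CPT comparison of U2OS with that of libraries 10 to 17, which again share no library, passed for 12 of 43 members, 8 more positive under CPT in U2OS (18.6%, against 5.15% of all 22363 genes tested) and 4 more negative (9.30%, against 6.71%). The clearest were COL27A1 (difference 2.91, SE 0.23, edgeR adjusted p = 8.19e-14) and COL13A1 (difference 3.88, SE 0.34, edgeR adjusted p = 4.04e-12). Members that passed include COL25A1, near the floor in U2OS, and COL8A1, near the floor in libraries 10 to 17. COL3A1, which fell in U2OS, was at 3.37, 2.78, 4.48 and 3.77 CPM against 1.85, 2.71, 3.56 and 2.22 CPM here, and its difference was -2.03 (edgeR adjusted p = 1.15e-05). Since these are different lines and doses, and the labels of libraries 10 to 17 are in doubt, the interaction compares these sets of libraries.

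No collagen gene passed the cutoffs in HEK293T libraries 18 to 21, labelled ATM KO and read as the inhibitor. Of 32 members tested between libraries 18 to 21 and DMSO libraries 22 to 25, 0 rose or fell (0% of all 18413 genes tested, by edgeR's quasi-likelihood test). No member passed by edgeR's likelihood ratio test or by DESeq2 either. The study, which used the likelihood ratio test, reports 2 transcripts of all genes as altered after ATM inhibition in HEK293T cells. The smallest adjusted p among the members was 0.882 by edgeR's quasi-likelihood test, and 2 members and 1019 of all genes had an unadjusted p under 0.05. COL6A1 was at 117, 127, 129 and 163 CPM with the inhibitor and 164, 135, 158 and 126 CPM with DMSO (log2 fold change -0.06, SE 0.11, edgeR adjusted p = 0.977). COL18A1 was at 56.99, 48.8, 49.8 and 90.8 CPM and 66.7, 71.7, 67.9 and 60.7 CPM (log2 fold change -0.07, SE 0.13, edgeR adjusted p = 0.977). COL14A1 was at 26.6, 28.6, 26.2 and 29.8 CPM and 34.7, 24.3, 31.8 and 32.9 CPM (log2 fold change -0.09, SE 0.14, edgeR adjusted p = 0.9701). In each case the sets overlapped.

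Genes that make, bind or regulate collagen were counted from lists fixed beside the members. Of the processing genes, which hydroxylate, fold, export, trim and cross-link the chains, 36 of 37 were tested with CPT in U2OS. Of these, 3 rose and 2 fell, close to the shares of all genes (7.97% rose and 5.5% fell). By adjusted p alone, 13 of the 36 were higher and 6 lower (16.6% and 15.3% of all genes). P3H2, a prolyl 3-hydroxylase of basement membrane collagens, was at 40.3, 31.3, 34.3 and 29.3 CPM against 19.5, 15.5, 9.38 and 14.7 CPM (log2 fold change 1.38, SE 0.17, edgeR adjusted p = 9.65e-08). PCOLCE2, an enhancer of procollagen cleavage, was at 91.2 ± 5.7005 CPM against 49.5 ± 12.1 CPM (log2 fold change 1.07, SE 0.13, edgeR adjusted p = 9.17e-08). COLGALT2, which adds galactose to hydroxylysines, fell from 8.95, 8.95, 10.5 and 7.69 CPM to 0.883, 0.931, 0 and 0.312 CPM (log2 fold change -3.78, SE 0.41, edgeR adjusted p = 8.27e-09). TLL2, a procollagen proteinase related to BMP1, rose from a mean of 0.451 CPM to 3.77 ± 1.68 CPM (log2 fold change 3.14, SE 0.52, edgeR adjusted p = 1.58e-05). It passed the filter on low counts only through the CPT libraries and so had to rise to be tested. In the even against the odd libraries of 1 to 8, 0 of 36 rose and 2 fell (2.8% and 2.44% of all genes). The 2 were TLL1 (log2 fold change -2.69, SE 0.30, edgeR adjusted p = 4.65e-10) and the cross-linking enzyme LOXL4 (log2 fold change -1.07, SE 0.17, edgeR adjusted p = 3.03e-06).

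In libraries 10 to 17, 0 of 37 processing genes tested rose and 5 fell (4.45% of all genes fell). By adjusted p alone, 2 were higher and 16 lower (17.6% and 17.3% of all genes), with a median log2 fold change of -0.40. P4HA1, a catalytic subunit of prolyl 4-hydroxylase, was at 77.2, 87.96, 81.2 and 84.7 CPM in the even and 173, 141, 179 and 196 CPM in the odd libraries (log2 fold change -1.08, SE 0.11, edgeR adjusted p = 1.50e-07). CRTAP (log2 fold change -1.03, SE 0.13, edgeR adjusted p = 3.21e-06) and P3H4 (log2 fold change -1.01, SE 0.13, edgeR adjusted p = 2.60e-06), parts of the complexes that modify prolines and lysines, and the procollagen N-proteinase ADAMTS2 (log2 fold change -1.24, SE 0.21, edgeR adjusted p = 7.86e-05) fell with it. Between the lines in DMSO, 14 of 36 processing genes tested were higher in U2OS and 2 in HEK293T (21.8% and 18.1% of all genes). TLL2, higher in HEK293T, passed the filter on low counts only through that line. LOXL4 was at 77.6 ± 11.6 CPM in U2OS and 1.43 ± 0.967 CPM in HEK293T, and PLOD1, a lysyl hydroxylase, at 133 ± 24.5 CPM and 21.03 ± 1.76 CPM.

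Of 10 collagen receptors tested with CPT in U2OS, 2 rose and 1 fell (7.97% and 5.5% of all genes), and 7 did not pass. ITGA2, the collagen-binding integrin subunit of epithelia and platelets, was at 160.4, 195, 195 and 187 CPM with CPT and 55.3, 53.7, 42.8 and 42.1 CPM with DMSO (log2 fold change 2.11, SE 0.12, edgeR adjusted p = 4.84e-15). ITGA11, the integrin subunit of fibroblasts that binds fibrillar collagen, went from 6.48, 3.78, 4.98 and 7.69 CPM to 1.47, 0.931, 0.693 and 0.936 CPM (log2 fold change -2.31, SE 0.39, edgeR adjusted p = 1.96e-05), and GP6, the platelet collagen receptor, rose (log2 fold change 3.40, SE 0.33, edgeR adjusted p = 9.88e-10). In libraries 2, 4, 6 and 8, ITGA11 was the only receptor of 9 tested that passed (log2 fold change -1.60, SE 0.49, edgeR adjusted p = 0.0194), and without library 1 its log2 fold change of -1.45 did not pass (edgeR adjusted p = 0.0645). Of all genes, 2.44% fell in that comparison. DDR2, a receptor tyrosine kinase for fibrillar collagen, was at 41.9, 41.05, 34.5 and 43.1 CPM in libraries 10, 12, 14 and 16 and 95.8, 168, 188 and 108 CPM in libraries 11, 13, 15 and 17 (log2 fold change -1.82, SE 0.18, edgeR adjusted p = 5.26e-08), and MRC2, which takes collagen up for degradation, fell too (log2 fold change -1.15, SE 0.21, edgeR adjusted p = 1.98e-04), the 2 receptors of 9 that passed. There 4.45% of all genes fell. Of 10 receptors tested, 7 were higher in U2OS and 2 in HEK293T (21.8% and 18.1% of all genes). Among them were DDR1 (2.98), ITGB1 (2.97) and DDR2 (-1.24) as log2 fold changes of U2OS over HEK293T. ITGA10, ITGA11 and GP6 passed the filter on low counts only through U2OS.

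Among 15 matrix partners tested with CPT in U2OS, 3 rose and 1 fell (7.97% and 5.5% of all genes). TGFBI, which links collagen to integrins, was at 165, 146, 139 and 144 CPM against 46.001, 46.8, 49.8 and 52.9 CPM (log2 fold change 1.77, SE 0.12, edgeR adjusted p = 4.25e-13). The microfibril protein FBN1 was at 88.1 ± 14.2 CPM against 32.6 ± 3.1002 CPM (log2 fold change 1.61, SE 0.13, edgeR adjusted p = 1.78e-11), and the fibril-binding proteoglycan LUM rose from a low level (log2 fold change 2.62, SE 0.32, edgeR adjusted p = 7.02e-08), while PRELP fell to the floor (log2 fold change -3.31, SE 0.72, edgeR adjusted p = 5.43e-04). PRELP passed the filter on low counts only through the DMSO libraries and so had to fall to be tested. In libraries 1 to 8, 3 of 18 rose and 2 fell (2.8% and 2.44% of all genes), with TNC (log2 fold change -2.59, SE 0.25, edgeR adjusted p = 6.28e-12) and THBS1 (log2 fold change -1.37, SE 0.18, edgeR adjusted p = 8.92e-08) lower and LUM (log2 fold change 2.26, SE 0.40, edgeR adjusted p = 3.57e-05) and MATN2 (log2 fold change 1.07, SE 0.17, edgeR adjusted p = 3.41e-06) higher in the even libraries. THBS2, which also rose, passed the filter on low counts only through the even libraries. In libraries 10 to 17, 9 of 19 rose and 0 fell (9.52% and 4.45% of all genes). DCN, PRELP, SPARCL1 and POSTN passed the filter on low counts only through the even libraries and so had to rise to be tested, and with filterByExpr 1 partner passed. The 4 with the smallest adjusted p were POSTN, FBN1, PRELP and SPARCL1. FBN1 was at 19.3, 18.8, 18.2 and 17.9 CPM against 5.89, 7.78, 11.6 and 9.75 CPM (log2 fold change 1.08, SE 0.19, edgeR adjusted p = 1.58e-04), and the other 3 had means of 2.26, 1.17 and 1.297 CPM in the even libraries. Of 16 tested between the lines, 10 were higher in U2OS, led by SPARC (log2 fold change 7.34, SE 0.19, edgeR adjusted p = 4.03e-26), and 3 in HEK293T, led by NID2 (log2 fold change -5.72, SE 0.32, edgeR adjusted p = 6.12e-17). The shares of all genes were 21.8% and 18.1%. PRELP and COMP passed the filter on low counts only through the line where they were high.

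Regulators of collagen genes comprised TGF-β ligands and their signal carriers and transcription factors of mesenchyme. With CPT in U2OS, 1 of 19 tested rose and 2 fell (7.97% and 5.5% of all genes). TGFB2 was at 606, 464, 439 and 439 CPM against 241, 200.3, 194 and 173 CPM (log2 fold change 1.45, SE 0.12, edgeR adjusted p = 2.56e-11), while TGFB3 (log2 fold change -1.32, SE 0.23, edgeR adjusted p = 2.53e-05) and PRRX1 (log2 fold change -1.61, SE 0.26, edgeR adjusted p = 9.11e-06) fell. In libraries 1 to 8, 0 of 19 rose and 3 fell (2.8% and 2.44% of all genes). The 3 were EGR1 (log2 fold change -1.28, SE 0.17, edgeR adjusted p = 4.88e-08), PRRX1 (log2 fold change -1.08, SE 0.31, edgeR adjusted p = 0.0131) and TWIST2 (log2 fold change -1.37, SE 0.48, edgeR adjusted p = 0.0491). EGR1 went the other way in libraries 10 to 17, at 19.9, 20.99, 25.9 and 25.5 CPM in the even and 2.86, 5.42, 3.11 and 2.66 CPM in the odd ones (log2 fold change 2.66, SE 0.23, edgeR adjusted p = 6.39e-09). There 5 of 20 regulators rose, SMAD7, CCN2 and SOX9 among them, and 0 fell (9.52% and 4.45% of all genes). Between the lines, 12 of 20 were higher in U2OS and 2 in HEK293T (21.8% and 18.1% of all genes), with CCN2 at 293 ± 81.5 CPM against 5.84 ± 1.896 CPM. TWIST1, higher in HEK293T, passed the filter on low counts only through that line. With the inhibitor, 0 genes of any of these lists passed. Of the 10 list genes named for libraries 1 to 8, 9 passed without library 1, and the 14 named for libraries 10 to 17 all passed without library 17.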

How the data were processed

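The authors isolated RNA, made QuantSeq 3′ libraries (FWD) and deposited raw counts per gene, made with Lexogen's UMI pipeline for this kit (version 2.3.1). Aligner settings, genome build and annotation are not given in the sources used here. Of the deposited rows, 5 summary rows (10.9 to 40.6% of a library's counts) and 92 spike-ins were left out, and 56531 of 60107 gene identifiers were found in GENCODE 29, which gave symbols. All 32 columns were used. Each comparison was fitted alone in R 4.3.3 with edgeR 4.0.16 (TMM scaling and the quasi-likelihood test, on genes that exceed 1 count in 2 or more libraries), with Benjamini-Hochberg adjustment over all genes tested, after tests on simulated data. The study's likelihood ratio test, DESeq2 1.42.0, RLE scaling, other filters, all libraries in a single fit, grouping by label and each library left out were alternatives. The members and gene lists were chosen with earlier results of these data known. Values were given for members past the cutoffs in any comparison, members at a mean of 10 CPM or more and their chain partners, and for at most 4 genes a list and comparison, those with the smallest adjusted p. The labels do not say whether libraries of a group came from separate cultures, while the study describes independent repeats. Otherwise p-values measure only the spread between libraries. Promoters are RefSeq sequences (GRCh38.p14). No 2 columns were identical.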

Additional observations from a re-analysis of the deposited data

Results flagged for a closer look

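Among members at a mean of 10 CPM or more, 120 sets of 4 libraries were searched for a library far from the other 3 of its set, and 8 held 1 by Dixon's criterion, which chance meets in about 1 of 20 sets. In the U2OS CPT libraries, library 26 was highest for COL1A1 (4697 CPM, against 3638 to 3731 CPM) and for COL4A1 (294 CPM, against 283 to 284 CPM). With the ATM inhibitor, library 21 was highest for COL5A1 (31.9 CPM, against 23.1 to 23.6 CPM) and for COL27A1 (47.6 CPM, against 31.9 to 32.9 CPM). COL9A3 was highest in library 13 (19.8 CPM, against 13.1 to 13.7 CPM) and COL25A1 lowest in library 11 (10.3 CPM, against 10.6 to 10.7 CPM), both among libraries 11, 13, 15 and 17. COL16A1 was lowest in library 8 (17.5 CPM, against 29.4 to 31.6 CPM), and COL22A1 was highest in U2OS DMSO library 33 (21.6 CPM, against 15.1 to 15.8 CPM).

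The change with CPT in U2OS and the change between the even and odd libraries of 1 to 8 differed for 13 members by edgeR's interaction test. On the log2 scale, CPT minus the other comparison, the difference was 5.41 for COL5A3, 3.66 for COL6A3, 2.83 for COL13A1, 2.47 for COL4A1, 1.87 for COL1A1, 1.66 for COL4A2, 1.48 for COL5A1, 1.47 for COL12A1, 1.37 for COL16A1 and 1.30 for COL27A1. It was -1.31 for COL8A1, -1.65 for COL4A4 and -2.61 for COL26A1. All 13 passed without library 1 as well. COL5A3 stood at 0 to 2.42 CPM in these libraries, near the floor. In each comparison alone it passed the filter on low counts only through the set where it was high, and its difference was lost with filterByExpr.

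Against the even and odd libraries of 10 to 17, the change with CPT in U2OS differed for 12 members. The difference was 4.03 for COL25A1, 3.88 for COL13A1, 2.91 for COL27A1, 1.74 for COL4A1, 1.53 for COL18A1, 1.43 for COL4A5, 1.33 for COL5A1 and 1.33 for COL4A2. It was -3.50 for COL8A1, -2.89 for COL14A1, -2.03 for COL3A1 and -1.61 for COL9A3. All 12 passed without library 17 as well. COL25A1 in U2OS, where its rise rests on libraries 26 and 29, and COL8A1 in libraries 10 to 17 were near the floor. In that comparison alone, each passed the filter on low counts only through the set where it was high. COL9A3 and COL14A1 were near the floor in U2OS.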

How the results depend on the processing

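Without the cutoff on fold change, more genes passed by construction. The count of members rose to 18 for CPT in U2OS, 15 for libraries 1 to 8 and 22 for libraries 10 to 17. That of processing genes became 19 of 36, 8 of 36 and 18 of 37 in the same order (33 of 36 between the lines). That of regulators became 10 of 19, 6 of 19 and 9 of 20. Receptors numbered 3 of 9 in libraries 1 to 8 and 4 of 9 in libraries 10 to 17. Matrix partners numbered 8 of 15 for CPT and 10 of 18 for libraries 1 to 8. Of all genes, 16.6% were higher and 15.3% lower by adjusted p alone for CPT. The shares were 6.43% and 6.56% for libraries 1 to 8 and 17.6% and 17.3% for libraries 10 to 17. Between the lines they were not counted.

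Grouped by the deposited labels, libraries of both profiles fall into 1 group, and in libraries 1 to 8 the count was 0 for the members and for each of the lists. In libraries 10 to 17 it was 1 for the members, 1 for receptors and 0 for partners and regulators. There the log2 fold change of COL8A1 turned to -0.78 (edgeR adjusted p = 0.831) and that of COL12A1 to -4.69 (edgeR adjusted p = 0.193), and 9 of the 10 calls on members were lost, as were all 9 in libraries 1 to 8.

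With the filterByExpr filter, which drops low genes, 3 members and 1 matrix partner passed in libraries 10 to 17 and 0 receptors in libraries 1 to 8. The members whose calls it lost, in any comparison, were too low to test under it. DESeq2 gave 2 processing genes in libraries 10 to 17 and 1 regulator in libraries 1 to 8, and lost 7 of 60 calls on members, 2 of which it gave no adjusted p. The cause of the changes with DESeq2 was not tested.

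With each library left out in turn, counts of members stayed within 1.5 times. Processing genes numbered 1 to 2 in libraries 1 to 8 and 3 to 7 in libraries 10 to 17, and in libraries 1 to 8 receptors numbered 0 (without library 1) to 1, partners 3 (without library 7) to 5 and regulators 1 (without library 7) to 3. The lowest counts of processing genes came without library 5 and without library 10. Calls that were lost concerned COL4A5, COL25A1 and COL26A1 for CPT in U2OS, COL5A3 in libraries 1 to 8, COL6A6, COL11A2 and COL23A1 in libraries 10 to 17, and COL28A1 between the lines (too low to test without library 31 or 32). Calls were also gained, by COL7A1 for CPT, by COL4A2 and COL8A1 in libraries 1 to 8, and in libraries 10 to 17 by 8 members, COL2A1, COL4A6, COL5A3, COL14A1, COL20A1, COL24A1, COL27A1 and COL28A1. By adjusted p alone, 4 members lost their call for CPT, 5 in libraries 1 to 8 and 8 in libraries 10 to 17. In the same way 2 members gained a call for CPT, 4 in libraries 1 to 8 (COL4A5, COL6A1, COL12A1 and COL27A1) and 5 in libraries 10 to 17. COL6A1 and COL27A1 also passed by adjusted p in libraries 1 to 8 with no filter and with all 32 libraries in a single fit. RLE scaling lost COL5A3 in libraries 1 to 8 and no filter lost COL6A6. The likelihood ratio test gained COL10A1 in libraries 1 to 8 and COL5A3, COL20A1 and COL28A1 in libraries 10 to 17, no filter gained COL20A1 there, and all 32 libraries in a single fit gained COL20A1 there and COL6A6 between the lines. Among differences between comparisons, COL5A3 was lost with filterByExpr, COL3A1 gained with filterByExpr and with RLE scaling, and COL10A1 and COL11A2 gained with the likelihood ratio test. No paired analysis was possible because each library carries a number of its own. Depth limits what can be said of members under about 2.43 CPM, the level of 3 counts in the shallowest library.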
